A study of Mus musculus with 8 samples.

Results

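Nfil3 and 9 partner genes of the circadian clock (Dbp, Tef, Hlf, Nr1d1, Nr1d2, Per1, Per2, Bhlhe40 and Bhlhe41) were followed by gene symbol through 8 RNA sequencing libraries of mouse bone marrow cells, 10 of the 55487 genes quantified. RNA came from C57BL/6J mice, either wild type littermate controls or mice from which floxed Nfil3 had been deleted (Nfil3-deficient). Both genotypes were sorted for 2 populations that lacked lineage markers, CD34 and c-Kit and carried CD200R3: pre-Baso with high, and basophils with intermediate, staining by MAR1, an antibody to the alpha chain of the IgE receptor. Each of the 4 groups (control pre-Baso, deficient pre-Baso, control basophils, deficient basophils) was sequenced as 2 libraries, described as biological duplicates by the submitters. The labels name neither the Cre driver, nor the animals' age, nor the time of day at which marrow was taken. For genes whose RNA cycles over the day, collection time and genotype or population therefore cannot be told apart if they differed.

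NFIL3 is a basic leucine zipper repressor that binds D-box elements in DNA. The PAR-type leucine zipper factors DBP, TEF and HLF activate transcription from the same elements. Transcription of Dbp, Per1, Per2, Nr1d1, Nr1d2, Bhlhe40 and Bhlhe41 is driven by CLOCK and BMAL1 through E-boxes in the core clock, and PER proteins and the BHLHE repressors feed back on that step. REV-ERB alpha and beta, the products of Nr1d1 and Nr1d2, repress Nfil3 through RORE elements in liver, which ties NFIL3 to the clock. In immune cells NFIL3 is known for its role in the development of innate lymphoid cells.

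The start of the Nfil3 coding sequence is printed here because the genotype check below turns on it. Nfil3 lies on the minus strand of chromosome 13 (GRCm38, 52967209 to 52981073; ENSMUSG00000056749), with 2 annotated exons. Exon 1 (52980861 to 52981073, 213 bases) holds no coding base. Exon 2 (52967209 to 52969021, 1813 bases) holds all 1389 coding bases. The first 60 coding bases, at chr13:52968807-52968866 on the minus strand, follow with the start codon in capitals.
Nfil3 coding start: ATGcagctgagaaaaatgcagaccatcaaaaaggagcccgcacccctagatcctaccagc

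Promoter windows of 250 bases before the start site were read from the RefSeq table (GRCm38.p6), which gave 10 windows for 8 of the 10 genes. Motif matches on either strand describe letters only. The E-box letters CACGTG stood in 4 windows of 3 genes (Tef, Per1 and Bhlhe41), against 6.02% of all 32851 windows. The RORE core AGGTCA stood in 3 windows of 3 genes (Nfil3, Nr1d2 and Per1), against 14% of all windows. The cAMP response element TGACGTCA stood in 1 window, that of Hlf, against 1.55%. The D-box letters TTATGTAA or TTACGTAA stood in none of the 10 windows, against 0.931% of all windows. Windows of 30 bases are shown for Nfil3 and for the E-boxes of the clock genes that passed the filter on low values, on the strand of the gene with the motif in capitals. For Nfil3 the RORE core reads as its reverse complement and begins 12 bases before the RefSeq start site, which lies inside the exon 1 of the files' annotation.
Nfil3, RORE core, chr13:52981040-52981069, minus strand: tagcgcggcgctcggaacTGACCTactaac
Tef, E-box, chr15:81802534-81802563, plus strand: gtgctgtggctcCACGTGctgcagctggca
Tef, E-box of the second start site, chr15:81811264-81811293, plus strand: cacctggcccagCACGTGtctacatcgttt
Per1, E-box, chr11:69098771-69098800, plus strand: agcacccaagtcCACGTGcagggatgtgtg

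Levels are given as TPM, a share of all transcripts corrected for length and scaled to a total of 1000000, summed over a gene's transcripts. Assigned sequence was 271.7 to 398 megabases per library. Protein-coding genes took 18.7% to 22.4% of the TPM. Of the assigned sequence they took 154.5 to 223.4 megabases, or 3028583 to 4379634 reads per library. By the coverage per TPM of highly expressed transcripts, 1 read per kilobase was worth a TPM of 0.0803 to 0.115. Reads are equivalents, the assigned bases divided by a read length of 51 bases, and their intervals cover counting error only. The sort labels were checked on 10 basophil genes, whose summed level was 5119 to 34986 TPM. Mast cell markers summed to 0.0335 to 2.95 TPM and T and NK cell markers to 0 to 0.722 TPM, with 3 of each list at 0 in every library. Neutrophil markers summed to 697 to 1133 TPM in pre-Baso and 1221 to 2298 TPM in basophils, and monocyte and macrophage markers to 167 to 263 and 331 to 846 TPM. The first control basophil library stood apart with 2541 TPM of eosinophil markers, against 15.6 to 183 TPM in the other 7. The protease gene Mcpt8, a basophil marker, was nearly lost in deficient mice (at most 6.04 TPM, against at least 969 TPM in controls). Whether that change follows from Nfil3 loss was not tested, and its part in the genotype differences below was not tested.

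Of the 10 genes, 5 passed the filter on low values (2 or more libraries at or above 1 TPM) and were tested: Nfil3, Dbp, Tef, Per1 and Bhlhe40. Over all 8 libraries the mean level was highest for Nfil3 (7.5 TPM), followed by Dbp (3.46), Tef (2.16), Per1 (2.14) and Bhlhe40 (2.02). The Nfil3 mean rests on the control groups, and in both deficient groups it was the lowest of the 5. The ranges of the last 3 over the libraries overlapped, and so did those of Dbp and Tef. The other 5 genes stayed below 1 TPM in every library, in the order Per2 (0.413), Hlf (0.164), Nr1d2 (0.139), Bhlhe41 (0.0390) and Nr1d1 (0.0251). Tests were made by limma on log2(TPM + 1), a scale that understates the change of genes near a TPM of 1, with Benjamini-Hochberg adjustment over all 12511 genes tested. Genes below an adjusted p of 0.05 are called changed.

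**Figure D1:**
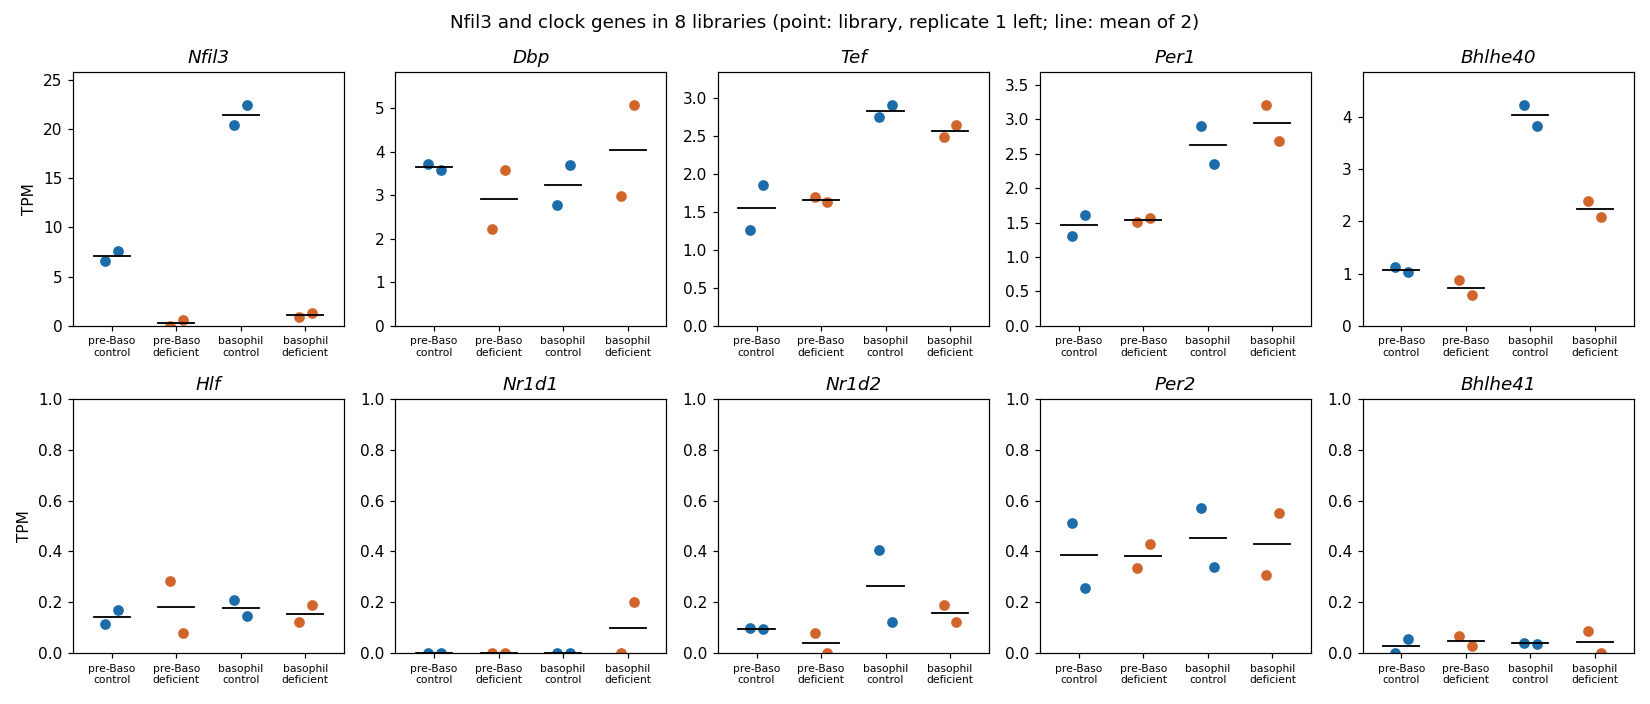
TPM of the 10 genes in each library (y axis, linear, own scale per gene in the top row and 0 to 1 in the bottom row), by population and genotype; points are libraries with replicate 1 on the left, and lines are means of 2. Nfil3 reaches 20.5 and 22.5 TPM in control basophils and at most 1.32 TPM in deficient libraries, and the 5 genes in the bottom row stay below 1 TPM.

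Nfil3 was expressed in control pre-Baso, was higher in control basophils, and was almost lost in all 4 deficient libraries. Its level was 6.61 and 7.65 TPM in the 2 control pre-Baso libraries (7.13 ± 0.734, SD, n = 2) and 20.5 and 22.5 TPM in control basophils (21.5 ± 1.41). It was 0 and 0.624 TPM in deficient pre-Baso (0.312 ± 0.441) and 0.853 and 1.32 TPM in deficient basophils (1.09 ± 0.332). Every deficient library lay below every control library. In the first deficient pre-Baso library no read was assigned to Nfil3, and 3 reads would have given 0.139 TPM.

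Nfil3 fell in both populations of deficient mice. The log2 change was -2.67 ± 0.25 (SE) in pre-Baso (limma adjusted p = 0.00896) and -3.44 ± 0.25 in basophils (limma adjusted p = 0.00151), where the mean was 19.7-fold lower. It was the only one of the 5 tested genes called in either population. Over all genes, 0.0639% were called in pre-Baso, 0.056% in basophils and 0.0879% for the mean of both, in which Nfil3 was again the 1 gene of the 5 called. Over all 8 libraries the difference was -3.05 on the log2 scale, with a two-sided exact permutation p of 0.0286, the smallest that 70 splits allow. Nfil3 was the gene deleted and the splits took no account of population. This p is therefore a check of the labels and adds no further support. Without either control pre-Baso library the pre-Baso call was lost (limma adjusted p = 0.165 without the first and 0.136 without the second), while the basophil call held without any one library. Both calls were lost with a pseudocount of 0.1 (limma adjusted p = 0.175 and 0.164), at log2 differences of -4.74 and -4.21.

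The reads that remained on Nfil3 in deficient mice lay mainly on the non-coding exon. On exon 2, control pre-Baso had 152 and 188 reads and control basophils 348 and 428, whereas deficient pre-Baso had 0 and 2 and deficient basophils 3 and 7. On exon 1, control pre-Baso had 10 and 5 reads and control basophils 12 and 9, and deficient pre-Baso had 0 and 12 and deficient basophils 14 and 23. On exon 2 the genotypes did not overlap in either population. On exon 1 they overlapped in pre-Baso, and both deficient basophil libraries lay above both control ones. Summed over 4 libraries, exon 2 had 78.2 reads per 1000000 protein-coding reads in controls (95% Poisson interval 73.7 to 82.9) and 0.895 (0.462 to 1.56) in deficient mice. Exon 1 had 2.52 (1.77 to 3.49) in controls and 3.65 (2.70 to 4.83) in deficient mice, with overlapping intervals. Exon 1 thus held 3.13% of the Nfil3 reads in controls (36 reads, against 1116 on exon 2) and 80.3% in deficient mice (49 reads, against 12). The gene-level TPM of deficient libraries therefore counts mostly reads outside the coding sequence shown above.

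**Figure D2:**
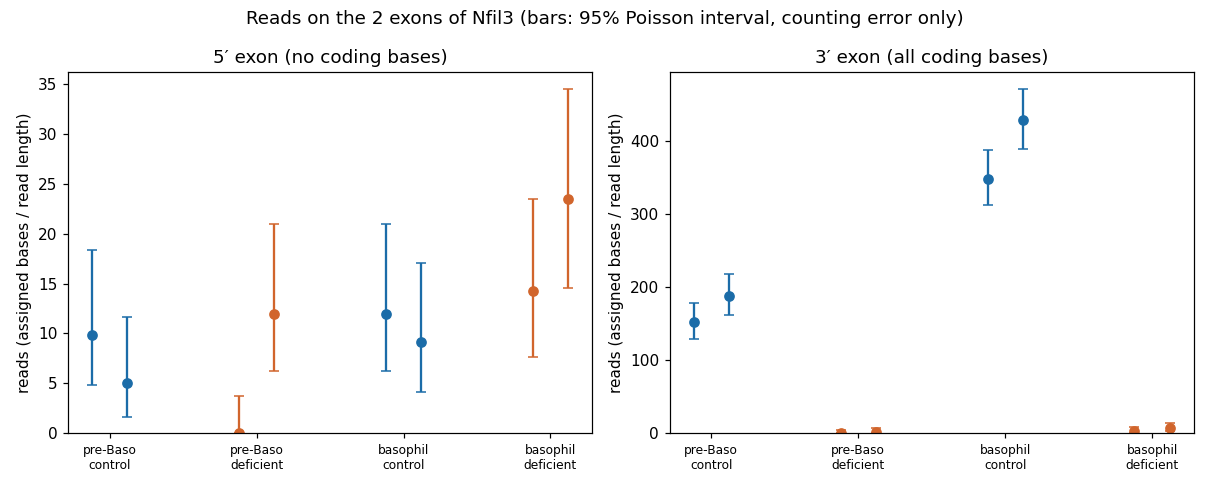
Reads on each Nfil3 exon (y axis, assigned bases divided by read length, linear, with a separate scale per exon) in the 8 libraries; bars are 95% Poisson intervals. The 3′ exon, which holds the coding sequence, has 152 to 428 reads in control and 0 to 7 in deficient libraries, while the 5′ exon has 5 to 12 in control and 0 to 23 in deficient libraries.

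The step from pre-Baso to basophils, called maturation here after the names of the populations, was compared within each genotype. Nfil3 rose in control mice, 3.01-fold on the means (log2 change 1.47 ± 0.25, limma adjusted p = 0.0051). That call held without any one library and was lost with a pseudocount of 0.1 (limma adjusted p = 0.173). Bhlhe40 also rose there, so that 2 of the 5 tested genes were called higher, where 12.6% of all tested genes were called higher and 22.6% in either direction. Of the 5, 4 were higher in controls without overlap, as were 36.4% of all tested genes. In deficient mice the Nfil3 values of basophils also lay above those of pre-Baso, with a log2 difference of 0.70 ± 0.25 that did not pass (limma adjusted p = 0.109). There 1 of the 5, Bhlhe40, was called higher, against 6.79% of all tested genes and 10.9% in either direction. Without overlap 4 of the 5 were higher, as were 36.6% of all tested genes. Of the calls in deficient mice 62.3% were higher, against 46.3% under median ratio scaling of the libraries and 39.4% without the second deficient basophil library. The difference of the genotype effect between the populations was -0.77 ± 0.35 for Nfil3 (95% interval -1.57 to 0.04, limma adjusted p = 0.901). It changed sign with the scale: it was 0.53 with a pseudocount of 0.1 and 0.08 when values were rescaled to protein-coding genes. No gene was called for that difference by limma (0 of 12511, a percentage of 0), while 5.51% had an unadjusted p under 0.05 and limma-voom on read equivalents called 1.

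Among the D-box activators, Dbp and Tef were expressed at low levels and Hlf was near the limit of counting. Dbp, the albumin D-box binding protein, had 3.73 and 3.57 TPM in control pre-Baso, 2.23 and 3.59 in deficient pre-Baso, 2.79 and 3.71 in control basophils and 3 and 5.08 in deficient basophils. The groups overlapped in every comparison. The log2 difference between genotypes was -0.27 ± 0.26 in pre-Baso (95% interval -0.86 to 0.32) and 0.22 ± 0.26 in basophils (-0.37 to 0.82). From pre-Baso to basophils it was -0.14 ± 0.26 in controls and 0.36 ± 0.26 in deficient mice, neither of which passed (limma adjusted p = 0.741 and 0.409). Dbp shares 539 exonic bases (18.0% of its exons) with Sphk2 on the other strand, itself at 2.77 to 5.31 TPM, and reads there cannot be told apart without strand.

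Tef, the thyrotroph embryonic factor, was higher in basophils than in pre-Baso in every library. It had 1.27 and 1.85 TPM in control pre-Baso, 1.69 and 1.64 in deficient pre-Baso, 2.76 and 2.91 in control basophils and 2.49 and 2.65 in deficient basophils. All 4 basophil libraries lay above all 4 pre-Baso libraries, which 21.3% of all tested genes also showed. The log2 difference was 0.59 ± 0.18 in controls (1.82-fold on the means) and missed the threshold (limma adjusted p = 0.051), which it passed after rescaling to protein-coding genes (0.81, limma adjusted p = 0.0221). In deficient mice it was 0.42 ± 0.18 (1.55-fold, limma adjusted p = 0.178). Deficient and control Tef differed by 0.07 ± 0.18 in pre-Baso (95% interval -0.36 to 0.49) and -0.10 ± 0.18 in basophils (-0.52 to 0.32). Of its annotated transcripts, 1 carried 60.6% of the Tef level and a second 26.8%.

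Hlf, the hepatic leukemia factor, had 0.115 and 0.171 TPM in control pre-Baso and 0.284 and 0.0802 in deficient pre-Baso. It had 0.207 and 0.148 TPM in control and 0.122 and 0.189 in deficient basophils. These values rest on 5 to 15 reads per library, and all groups overlapped.

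Of the 2 period genes, Per1 passed the filter on low values and Per2 did not. Per1, a repressor of CLOCK and BMAL1, had 1.30 and 1.62 TPM in control pre-Baso, 1.51 and 1.57 in deficient pre-Baso, 2.90 and 2.36 in control basophils and 3.21 and 2.69 in deficient basophils. As for Tef, every basophil library lay above every pre-Baso library. The log2 difference was 0.56 ± 0.19 in controls (1.80-fold on the means, limma adjusted p = 0.0617) and 0.63 ± 0.19 in deficient mice (1.92-fold, limma adjusted p = 0.0631), both just short of the threshold. Both passed when values were rescaled to protein-coding genes (limma adjusted p = 0.0308 and 0.0296). Between genotypes Per1 differed by 0.05 ± 0.19 in pre-Baso (95% interval -0.37 to 0.47) and 0.12 ± 0.19 in basophils (-0.30 to 0.55). Per2, its paralogue, ranged from 0.258 to 0.571 TPM (18 to 36 reads) with overlap in all comparisons.

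The REV-ERB genes were scarcely detected. Nr1d1 was at 0 in 7 libraries and at 0.201 TPM (6 reads) in the second deficient basophil library, where 3 reads would have given 0.0885 to 0.127 TPM in the 8 libraries. Its exons share 263 bases with Thra on the other strand, a gene at 2.39 to 4.17 TPM. Nr1d2 had 0.0973 and 0.0942 TPM in control pre-Baso and 0.0807 and 0 in deficient pre-Baso. It had 0.404 and 0.122 TPM in control and 0.191 and 0.124 in deficient basophils. The highest of these values, 15 reads, came from the control basophil library with the eosinophil markers, and without it no basophil library exceeded 0.191 TPM.

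Bhlhe40, also called DEC1, a repressor that competes at E-boxes and is known in lymphocytes and macrophages for its role in cytokine production, was called for a rise from pre-Baso to basophils in both genotypes. It had 1.12 and 1.03 TPM in control pre-Baso, 0.872 and 0.590 in deficient pre-Baso, 4.23 and 3.83 in control basophils and 2.39 and 2.08 in deficient basophils. All basophil libraries lay above all pre-Baso libraries, and within each population both deficient libraries lay below both control libraries.

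Bhlhe40 rose 3.74-fold on the means in control mice (log2 change 1.28 ± 0.19, limma adjusted p = 0.00263) and 3.06-fold in deficient mice (0.91 ± 0.19, limma adjusted p = 0.0218). The control call held without any one library (limma adjusted p at most 0.0197, and a change of 1.22 without the library with the eosinophil markers). The call in deficient mice was lost without any one of the 4 deficient libraries (limma adjusted p 0.0592 to 0.111) and without a filter on low values (limma adjusted p = 0.0703). With both first basophil libraries omitted, a choice made after seeing the data, the control change was 1.22 (limma adjusted p = 0.0351) and the deficient one 0.84 (limma adjusted p = 0.154).

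The lower Bhlhe40 of deficient cells did not pass. In basophils the mean was 1.80-fold lower (log2 difference -0.64 ± 0.19, 95% interval -1.06 to -0.21, limma adjusted p = 0.355), and 21.4% of all tested genes were likewise lower without overlap. In pre-Baso the difference was -0.27 ± 0.19 (-0.69 to 0.16), where 19.3% of genes were lower without overlap. Its genotype effect did not differ between populations beyond error (-0.37 ± 0.26, 95% interval -0.97 to 0.23, limma adjusted p = 0.957). Bhlhe41, or DEC2, stayed at 0 to 0.0857 TPM, on at most 5 reads.

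**Figure D3:**
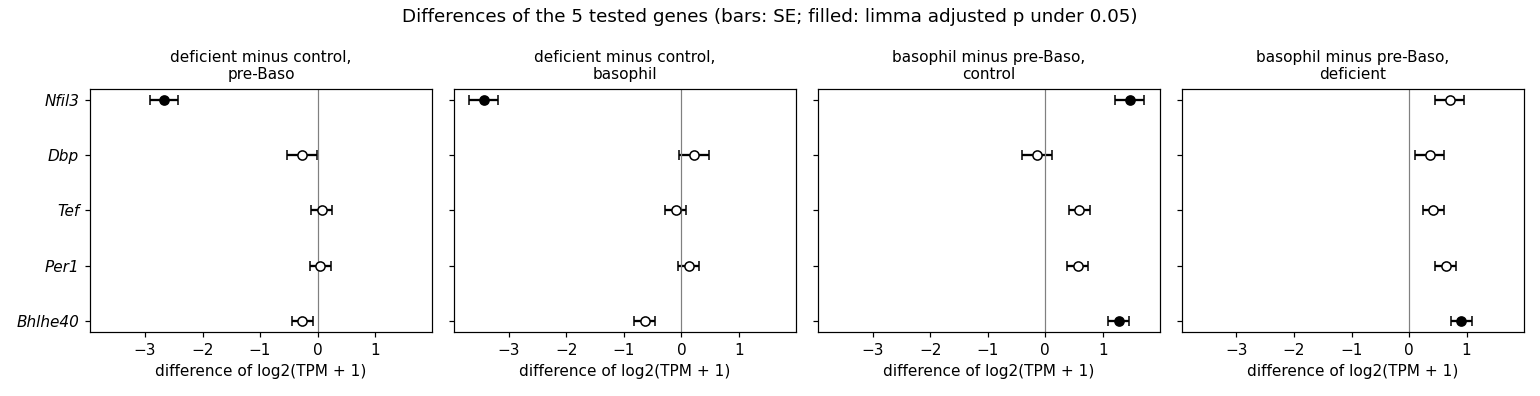
Log2 differences of log2(TPM + 1) for the 5 tested genes (x axis) in 4 comparisons, with bars of 1 SE and filled points where the limma adjusted p is under 0.05. Nfil3 is filled in both genotype comparisons and in control maturation, and Bhlhe40 in both comparisons of basophils with pre-Baso.

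Markers of other cells moved with the rise from pre-Baso to basophils. Monocyte and macrophage markers summed to 167 and 196 TPM in control pre-Baso and 846 and 331 TPM in control basophils, and to 263 and 244 and then 769 and 382 TPM in deficient mice. All 8 of these markers had a positive difference in both genotypes, and 3 were called higher in controls and 1 in deficient mice, where 12.6% and 6.79% of all tested genes were. Neutrophil markers moved likewise, with 8 of 8 positive in both genotypes, and 5 were called higher in controls and 2 in deficient mice, against the same shares of all genes. Of 6 eosinophil markers all had a positive difference, and 2 (Siglecf and Ccr3) were called higher in each genotype, against the same shares. These 2 had 10.3 and 8.97 TPM and 4.90 and 4.75 TPM in the control basophil libraries. The positive control differences of Prg2 and Epx rested on the first basophil library. Prg2 had 90.1 and 29.8 TPM in control pre-Baso and 2354 and 19.4 in control basophils. Epx had 2.15 and 0.372 TPM and then 49.7 and 0. Erythroid markers summed to 33.6 and 41.3 TPM in control pre-Baso and 162 and 134 in control basophils, and to 29.5 and 113 and then 152 and 128 TPM in deficient mice. Of 5 tested, 4 were called higher in controls and 0 in deficient mice, against 12.6% and 6.79% of all tested genes. The 4 (Hba-a1, Hba-a2, Hbb-bs and Hbb-bt) were higher without overlap in deficient mice too, as were 36.6% of all tested genes. Their log2 differences there were 1.06 to 1.37. The difference of these changes between genotypes did not pass for any of the 4 (limma adjusted p 0.965 to 0.979). The summed basophil markers were lower in basophils, at 5119 and 7415 TPM against 28125 and 34986 in control pre-Baso, and at 6833 and 10891 against 23886 and 20760 in deficient mice. Most of each sum was Prss34, at 19820 and 25020 TPM in control pre-Baso and 2667 and 4617 in control basophils. The list itself was split. Of its 10 genes, 4 had a positive difference in controls, with 2 called higher and 4 lower (10% of all tested genes were lower). In deficient mice 5 were positive, with 1 called higher and 3 lower. Of all tested genes 6.79% were called higher there, and 10.9% in either direction. The part of the markers of all these cell types in the values of Nfil3, Bhlhe40, Tef and Per1 was not tested. In bulk RNA of a sorted population, fewer cells of a type and less RNA per cell cannot be told apart.

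Of 16 other clock genes, 9 were tested and none was called between genotypes. Over all tested genes only 0.0639% were called in pre-Baso and 0.056% in basophils. Values were lower in deficient mice for 8 of the 9 in pre-Baso (median log2 difference -0.13, against -0.04 over all tested genes) and for 6 in basophils (median -0.22, against -0.01). From pre-Baso to basophils in controls, 3 of the 9 rose and 1 fell, where 12.6% of all tested genes rose and 10% fell. Of all control maturation calls 55.6% were higher, a share that was 46.9% under median ratio scaling, 40.4% without the first control pre-Baso library, 43.4% without the first control basophil library and 34.8% with both first basophil libraries omitted. The median was 0.60, against 0.08 over all tested genes. In deficient mice none of the 9 was called, with a median of 0.44 against 0.10 over all tested genes, and 7 of 9 were positive.

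The 3 that rose in controls were 2 kinase genes and Rora. The casein kinases that phosphorylate PER, Csnk1e and Csnk1d, changed by 1.04 ± 0.29 (limma adjusted p = 0.0331) and 0.67 ± 0.16 (limma adjusted p = 0.0183). Rora, an activator at RORE elements, changed by 0.76 ± 0.19 (limma adjusted p = 0.0256), from 0.739 and 0.775 TPM to 1.76 and 2.21 TPM. Timeless, which also serves DNA replication forks, fell (-0.75 ± 0.22, limma adjusted p = 0.0436).

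The positive limb was low. Arntl, which encodes BMAL1, had 0.472 to 0.836 TPM over the 8 libraries, Clock 0.0445 to 0.323 TPM and Npas2 at most 0.0300 TPM. Cry1 and Cry2, which encode the cryptochrome repressors, had 1.05 to 2.13 and 0.930 to 2.58 TPM and were not called.

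**Figure D4:**
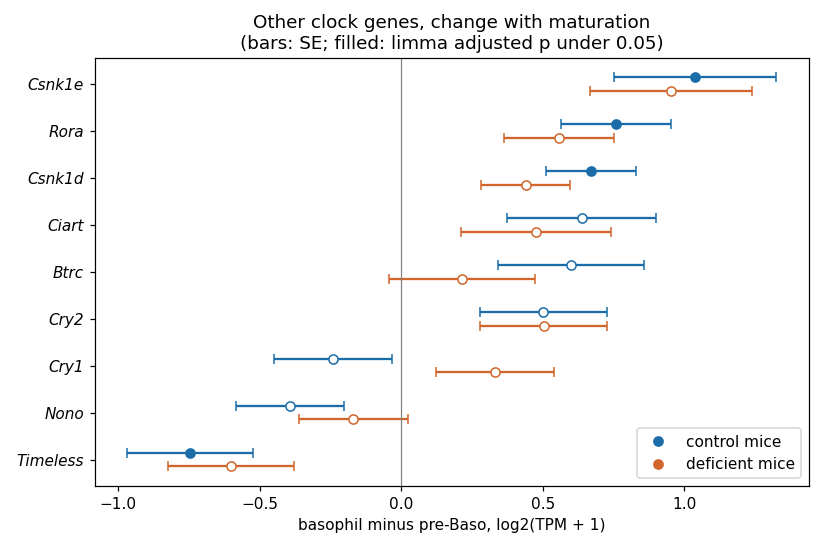
Log2 difference of log2(TPM + 1), basophil minus pre-Baso (x axis), of the 9 other clock genes tested, in control and deficient mice, with bars of 1 SE and filled points where the limma adjusted p is under 0.05. In controls Csnk1e, Rora and Csnk1d lie above 0 and Timeless below it as filled points, and no point is filled in deficient mice.

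Genes linked to NFIL3 in other immune cells were not called between genotypes, where 0.0639% (pre-Baso) and 0.056% (basophils) of all tested genes were. Of 13 such genes 6 were tested, and Il3, Il5, Il10, Il12b and Eomes were at 0 in every library. In control maturation 4 of the 6 rose, where 12.6% of all tested genes rose, and in deficient mice 2 of the 6 rose, where 6.79% did. Id2, a repressor of E proteins, had 13.9 and 8.70 TPM in control pre-Baso and 31.7 and 32.9 in control basophils (log2 change 1.47 ± 0.25, limma adjusted p = 0.00555). In deficient mice it had 7.78 and 12.1 TPM and then 24.7 and 28.9 (1.37 ± 0.25, limma adjusted p = 0.0162). Il4, the type 2 cytokine, had 38.1 and 43.4 TPM and then 99.4 and 103 in controls, and 41.9 and 41.5 TPM and then 65.4 and 78.7 in deficient mice. Its log2 change was 1.30 ± 0.15 in controls (limma adjusted p = 0.00099) and 0.77 ± 0.15 in deficient mice (limma adjusted p = 0.0186). The difference between these changes was -0.53 ± 0.21 and did not pass (limma adjusted p = 0.897).

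Immediate early genes, which respond to cell handling and stimulation as Per1 and Bhlhe40 can, were compared for that reason. Of 16, 10 were tested and none was called between genotypes, against 0.0639% of all tested genes in pre-Baso and 0.056% in basophils. From pre-Baso to basophils 5 of the 10 rose in controls and 4 in deficient mice, where 12.6% and 6.79% of all tested genes rose. The medians were 0.71 and 0.79, against 0.08 and 0.10 over all tested genes. Zfp36, an RNA decay factor, had 2.47 and 3.35 TPM in control pre-Baso and 28.8 and 15.4 in control basophils (log2 change 2.51 ± 0.29, limma adjusted p = 0.00102). Junb had 8.97 and 9.08 TPM and then 50.1 and 29.4 (1.97 ± 0.24, limma adjusted p = 0.00129). Fos stayed at 0 to 1.39 TPM with overlap. The summed level of the 16 was 110 and 123 TPM in control pre-Baso and 317 and 193 in control basophils, and 126 and 116 and then 242 and 227 in deficient mice, and its part in Per1 and Bhlhe40 was not tested.

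The 6 genes with C/EBP names were all tested and none was called between genotypes. Apart from Cebpz, they encode leucine zipper factors, whose dimers bind sites like the D-box. The shares called over all tested genes were 0.0639% in pre-Baso and 0.056% in basophils. Cebpa was the highest, at 78.3 to 110 TPM. In control maturation Cebpd rose (0.80 ± 0.17, limma adjusted p = 0.0135) and Cebpb fell (-0.93 ± 0.24, limma adjusted p = 0.0286). In deficient mice Cebpd rose by 0.93 ± 0.17 (limma adjusted p = 0.0163), and Cebpb differed by 0.07 ± 0.24. In pre-Baso Cebpb had 61.6 and 55.9 TPM in control mice and 37 and 37.5 in deficient mice, a log2 difference of -0.64 ± 0.24 that did not pass (limma adjusted p = 1).

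The tested genes whose pattern was most like that of Nfil3 were found by the root mean square difference of centred log2(TPM + 1) over the 8 libraries. They were Rpph1 (0.918), Trdv2-1 (0.969), Ang (1.02), Trdv2-2 (1.03) and Tulp4 (1.03). The first 4 lie on chromosome 14, 5.27, 2.14, 4.99 and 2.12 megabases from Mcpt8, while Nfil3 is on chromosome 13. The part of that position in their pattern was not tested. These distances were larger than those of the genes named next for Bhlhe40. The distance is not scaled to a gene's own range, which was 0 to 22.5 TPM for Nfil3 and 0.590 to 4.23 for Bhlhe40. Distances to Nfil3 and to Bhlhe40 therefore cannot be compared as likeness of pattern. Rpph1 and Ang were lower in both deficient libraries of each population. Both were picked on these same values. Of all tested genes 19.3% were likewise lower without overlap in pre-Baso and 21.4% in basophils. Trdv2-1, Trdv2-2 and Tulp4 did not separate the genotypes in pre-Baso. There Tulp4 reached 14.2 TPM in the second deficient library and 1.74 TPM in the first, while the controls held 14.3 and 14 TPM. For Bhlhe40 the nearest were Fam174b (0.0942), Tbx6 (0.130) and Ctsd (0.134). Fam174b had 24.7 and 25.2 TPM in control pre-Baso and 20.2 and 20.8 in deficient pre-Baso. In basophils it had 58 and 55 TPM in control mice and 40.3 and 38.9 in deficient mice.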

How the data were processed

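RNA from 8 libraries was measured by sequencing. Libraries were made with a SMARTER mRNA-Seq kit, per the labels' protocols. The authors aligned reads with HISAT2 (version not given in the sources used here) to mm10, per the submitters' processing notes. Transcripts were quantified with StringTie 2.1.4 against Ensembl release 101 without a strand option, per the file headers. The deposited tables give TPM, FPKM and coverage for 142699 transcripts, and coverage for each exon, per the file headers. They hold no read counts, and only 27.2% to 36.3% of low single-transcript genes came out at whole reads within 0.02, so count models were not used for the main results.

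TPM was summed per gene from transcripts. The 12511 genes that reached 1 TPM in 2 or more libraries were fitted by limma 3.58.1 in R 4.3.3 on log2(TPM + 1), with 1 mean per group over all 8 libraries, variance moderation with a trend and Benjamini-Hochberg adjustment within each comparison. The fit was tested on simulated data. Read equivalents are coverage times length divided by 51 bases, the most frequent non-zero sum of bases assigned to a gene. P-values rest on the spread between the 2 libraries of a group, pooled over the 4 groups and moderated across genes.

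The genes and lists were chosen with earlier results of these data known. Of the list of other clock genes, 2 are not reported here. Named were all 10 genes, members of the lists of clock, NFIL3-linked, immediate early and C/EBP genes, genes overlapping on the other strand, Mcpt8, marker genes, and the 5 (Nfil3) or 3 (other called genes) most alike genes. Summed B and plasma cell markers were 12.1 to 35.3 TPM and erythroid markers 29.5 to 162 TPM. Alternatives were other pseudocounts, filters and scalings, fits of the compared groups only, a replicate block, single libraries left out and, added after seeing the data, limma-voom on read equivalents and a fit without both first basophil libraries.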

Additional observations from a re-analysis of the deposited data

How the results depend on the processing

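At 2 libraries per group and this depth the 5 genes below 1 TPM were not tested, and for Dbp, Tef and Per1 the direction of small differences is not settled. The cause of the changes below was not tested.

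With a pseudocount of 0.1, the tested genes called fell to 0 for genotype in pre-Baso (Nfil3 limma adjusted p = 0.175), 0 for genotype in basophils and 1 for control maturation, where Nfil3 was lost. Median ratio scaling gave 3 for control maturation, with Tef. Without a filter on low values, and with only the compared groups fitted, they were 0 for genotype in pre-Baso and 0 for deficient maturation. Rescaled to protein-coding genes, they were 0 for genotype in pre-Baso (Nfil3 limma adjusted p = 0.118), 2 for deficient maturation (Bhlhe40 and Per1) and 3 for control maturation, where Tef and Per1 entered and Nfil3 was lost (limma adjusted p = 0.0719). Under limma-voom on read equivalents they were 0 for genotype in pre-Baso, 4 for control maturation (Nfil3, Bhlhe40, Tef and Per1) and 2 for deficient maturation. With both first basophil libraries omitted, where the lone basophil libraries are assumed to vary like pre-Baso, they were 0 for genotype in either population, 1 for control maturation (Bhlhe40) and 0 for deficient maturation. A pseudocount of 5 moved no count of these.

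The difference of the genotype effect turned sign for Nfil3 with a pseudocount of 0.1 (0.53), after rescaling to protein-coding genes (0.0765) and under voom (1.54). For the mean genotype difference, Dbp turned to 0.0143 (rescaled), 0.00381 (voom) and 0.0484 (both first basophil libraries omitted), and Tef to 0.0393 (rescaled), 0.00857 (median ratio scaling) and 0.101 (voom). Dbp in control maturation was 0.0175 with both first basophil libraries omitted.

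Leaving out each library in turn gave 0 to 1 called genes for genotype in pre-Baso and for deficient maturation, and did not change the counts in the other 4 comparisons. The genotype difference ranged, in pre-Baso, from -0.0977 to 0.233 for Tef and from -0.0429 to 0.142 for Per1, and in basophils from -0.0796 to 0.525 for Dbp. Its mean over both populations ranged from -0.176 to 0.127 for Dbp and from -0.0998 to 0.0657 for Tef, and its difference between populations from -0.035 to 0.183 for Per1. Control maturation of Dbp ranged from -0.296 to 0.0175. Over all tested genes, the settings other than single omissions gave 3 to 23 calls for genotype in pre-Baso (8 as reported), 4 to 27 in basophils (7), 5 to 19 for their mean (11), 1032 to 3279 for control maturation (2832), 4 to 2268 for deficient maturation (1363) and 0 to 2 for the difference (0). Single omissions gave 5 to 9, 6 to 17, 7 to 11, 1397 to 2651, 19 to 1237 and 0 to 2 in the same order.

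With the replicate number as a block (replicate block) the called genes were 1, 1 and 1 for genotype, 2 and 1 for maturation and 0 for the difference, as without it. Same-numbered libraries deviated together only weakly over all tested genes (correlations of deviations from -0.05 to 0.20), so the number was not taken as a pairing. The highest value, 0.20, was that of control with deficient basophils. Both first basophil libraries held more monocyte and macrophage marker TPM (846 and 769) than the second (331 and 382). The same held for neutrophil markers (2298 and 2035, against 1288 and 1221). A correlation over all genes cannot exclude a difference that these libraries share in such markers.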
